A study of Homo sapiens with 4 samples.

Results

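The RNA described here is copied from the light strand of human mitochondrial DNA opposite ND1 and ND2, which encode core subunits of respiratory complex I. Its members are the light-strand positions 12308 to 13263, opposite ND1, and 11059 to 12100, opposite ND2, taken by coordinate and not by any measured value. They number 1998 of the 16500 positions in the light-strand data, 956 opposite ND1 and 1042 opposite ND2. In the numbering of the data, a light-strand position and the heavy-strand position it pairs with sum to 16569. The stretches thus pair with heavy-strand positions 3306 to 4261 and 4469 to 5510, both within coding sequence of the opposite strand. In GRCh38 numbering of the mitochondrial chromosome these are positions 3307 to 4262 and 4470 to 5511. The paired bases were complementary at 16432 of 16432 positions. Read from the heavy strand, both stretches began with AT and ran for 318 and 347 codons with 0 stops in frame before the last.

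The libraries come from mitochondria of HEK-293T, an established line of human embryonic kidney cells, and probe the structure of their RNA. The organelles were exposed to 1% dimethyl sulfate (DMS) for 5 min at 37 °C, and libraries were made with the TGIRT enzyme, which writes a mismatch where it meets a methylated base. There were 2 wild-type libraries and 2 libraries of an LRPPRC knockout, labelled as biological replicates, and both groups received DMS. LRPPRC is an RNA-binding protein that stabilises mitochondrial mRNAs. Whether the knockout line is 1 clone is not stated in the labels, and its genotype could not be checked in data that hold mitochondrial positions alone. No untreated library was used here, and every fraction includes mismatches not made by DMS.

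Mitochondrial DNA is transcribed from both strands as long polycistronic RNAs. The light-strand transcript carries ND6 and a few tRNAs, and most of the rest of it is antisense to the heavy-strand mRNAs and is normally removed by the mitochondrial degradosome. In its direction of synthesis it runs first opposite ND2, then through 3 tRNA loci (TRNM, TRNQ and TRNI, of which TRNQ is encoded on this strand), and then opposite ND1. DMS methylates unpaired A and C. A mismatch at A or C of the light-strand sequence was therefore taken as signal of antisense RNA. A mismatch at G or T stands where the sense mRNA has C or A, and was taken as signal from reads of the sense strand within the light-strand data.

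These 50-nt stretches show the 2 signals base by base. Each is given 5′ to 3′ as the light-strand RNA in DNA letters, first with the wild-type and then with the knockout means, and capitals mark positions with a mean mismatch fraction of at least 2%. Capital A and C are thus antisense signal, and capital G and T are sense-strand signal. The first window opposite each gene has the lowest wild-type ratio of A and C to G and T in its stretch and was added after the values were seen. The others have the highest knockout A and C means.
Opposite ND1, 12851 to 12900, wild type: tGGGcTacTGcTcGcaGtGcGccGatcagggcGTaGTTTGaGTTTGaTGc
Opposite ND1, 12851 to 12900, knockout: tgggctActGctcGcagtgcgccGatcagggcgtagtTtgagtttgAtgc
Opposite ND1, 12501 to 12550, wild type: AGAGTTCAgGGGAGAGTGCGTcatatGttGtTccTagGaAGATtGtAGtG
Opposite ND1, 12501 to 12550, knockout: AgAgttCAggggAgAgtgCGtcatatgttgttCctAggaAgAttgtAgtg
Opposite ND1, 12401 to 12450, wild type: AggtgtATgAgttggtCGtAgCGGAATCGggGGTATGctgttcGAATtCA
Opposite ND1, 12401 to 12450, knockout: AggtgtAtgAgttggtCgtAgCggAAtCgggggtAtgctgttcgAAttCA
Opposite ND2, 11701 to 11750, wild type: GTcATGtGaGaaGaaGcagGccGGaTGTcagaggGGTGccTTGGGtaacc
Opposite ND2, 11701 to 11750, knockout: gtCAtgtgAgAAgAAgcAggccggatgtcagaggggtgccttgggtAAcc
Opposite ND2, 11401 to 11450, wild type: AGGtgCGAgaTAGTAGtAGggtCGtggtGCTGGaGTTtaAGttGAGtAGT
Opposite ND2, 11401 to 11450, knockout: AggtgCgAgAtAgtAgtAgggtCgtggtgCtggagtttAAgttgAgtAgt
Opposite ND2, 11101 to 11150, wild type: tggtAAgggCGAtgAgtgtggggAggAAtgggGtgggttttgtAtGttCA
Opposite ND2, 11101 to 11150, knockout: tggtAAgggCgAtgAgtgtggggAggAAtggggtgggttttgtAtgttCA
In the window from 12851, wild type had 0 A or C and 26 G or T at 2% or more, and the knockout had 2 and 4. In the window from 11701 the counts were 1 and 23 in wild type against 10 and 0 in the knockout. In the window from 11101, near the 5′ end of the stretch opposite ND2, the antisense count was 11 in both groups, while G and T went from 3 to 0.

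Both antisense stretches carried more mismatches at A and C, and fewer at G and T, in the knockout than in wild type. The rest of the light-strand data differed in the same directions. There A and C went from 1.56% to 2.01%, a factor of 1.29, and G and T were 2.62 times lower. G was 3.37 times and T 2.01 times lower there. Positions were kept with a mean fraction over the 4 libraries between 0.002 and 0.3. This left 326 of 340 A and C positions opposite ND1 and 361 of 367 opposite ND2, and the 20 dropped were all C under the lower limit. At G and T, 616 of 616 and 673 of 675 were kept, since 1 G and 1 T opposite ND2 lay above the upper limit. No member was listed at 0 in any library.

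Opposite ND1 the mean fraction at A and C was 1.63% and 1.64% in the wild-type libraries and 1.96% and 1.98% in the knockout libraries. The group means were 1.63% ± 0.0028 and 1.97% ± 0.014 (SD, n = 2 each), a difference of 0.339 percentage points, and the groups did not overlap. Opposite ND2 the libraries gave 1.86% and 1.85% against 2.21% and 2.24%, with means of 1.86% ± 0.0056 and 2.22% ± 0.020 (SD, n = 2 each). That difference was 0.368 percentage points, again without overlap. Opposite ND1, A went from 1.84% to 2.21% and C from 1.16% to 1.41%, by factors of 1.21 and 1.22. Opposite ND2, A went from 2.00% to 2.40% and C from 1.45% to 1.71%, by factors of 1.20 and 1.18.

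The G and T signal differed the other way and by more. Opposite ND1 it was 2.36% and 2.39% in wild type against 1.05% and 1.07% in the knockout, 2.24 times lower. Opposite ND2 it was 2.06% and 2.10% against 0.773% and 0.773%, 2.69 times lower. G, which pairs with C of the mRNA, differed more than T, which pairs with A: it went from 2.68% to 1.02% opposite ND1 and from 2.40% to 0.671% opposite ND2, against 2.00% to 1.11% and 1.74% to 0.883% for T. With 2 libraries against 2, the two-sided exact permutation test cannot go below p = 0.333, and it gave that value for each of these means.

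**Figure D1:**
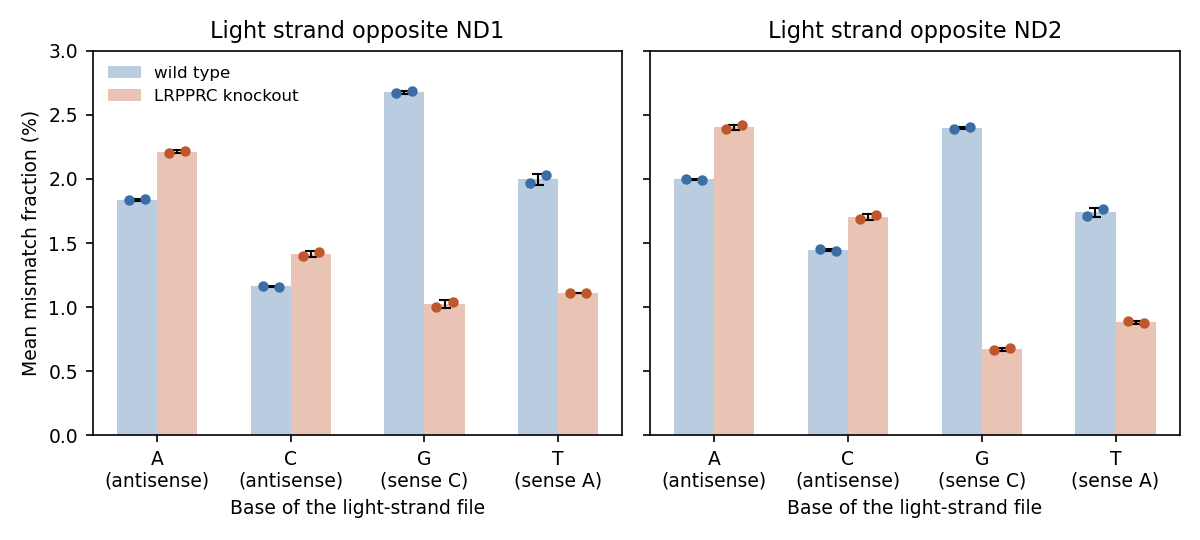
Mean mismatch fraction (%) of the tested positions by base of the light-strand sequence, opposite ND1 (left) and ND2 (right); bars are group means, points the 2 libraries, and error bars the SD. A and C were higher in the knockout, and G went from 2.68% to 1.02% opposite ND1 and from 2.40% to 0.671% opposite ND2.

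The share of positions with at least 2% showed the same exchange. Opposite ND1, 103 of 326 A and C positions reached 2% in wild type against 168 in the knockout, while G and T went from 347 to 24 of 616. Opposite ND2 the counts were 147 and 217 of 361 for A and C, and 308 and 3 of 673 for G and T. None of the 348 G positions opposite ND2 reached 2% in the knockout, where 209 had done so in wild type. The share of such positions over the whole light-strand data is not given here. Mean G of the rest of the data also went from 2.11% in wild type to 0.626% in the knockout. Mean A and C there went from 1.56% to 2.01%, so these counts do not set the stretches apart.

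The G and T values followed the DMS pattern of the sense mRNA in wild type, and less so in the knockout opposite ND2. The fraction at each light-strand G or T was regressed on the fraction at the paired C or A in the heavy-strand data of the same library. Opposite ND1 the least-squares slope was 62.5% and 62.4% in wild type against 33.0% and 33.0% in the knockout. Opposite ND2 it was 46.0% and 46.5% in wild type against 10.3% and 10.4% in the knockout. In both stretches the slope was lower in the knockout without overlap (exact permutation p = 0.333, the smallest possible). The stretch opposite ND1 exceeded that opposite ND2 by 16.2 percentage points in wild type against 22.6 in the knockout. The slope also fell without overlap in every other mRNA and rRNA region except ND6. It fell by more in some, as in COX1 from 88.1% to 17.5% and COX3 from 75.1% to 3.20%. In others it fell by less, as in ND5 from 22.4% to 9.94%. The 2 positions above the upper limit decide the direction opposite ND2: with them included, the slope was 89.7% in wild type against 97.8% in the knockout.

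Across positions of 1 library, Pearson's r of this regression was 0.76 to 0.79 opposite ND1 in wild type against 0.68 to 0.69 in the knockout. Opposite ND2 it was 0.75 to 0.78 in wild type against 0.31 to 0.33 in the knockout. For comparison, r opposite ND4 was 0.79 to 0.80 in wild type against 0.10 to 0.11 in the knockout. Opposite COX1 it was 0.84 to 0.87 against 0.43 to 0.46. The values opposite ND1 and ND2 describe 616 and 673 positions that share libraries and sequence and are not independent. Of the 50 highest G and T positions opposite ND1, 30 were also among the 50 highest positions of the paired sense bases in wild type against 32 in the knockout. Opposite ND2 the overlap was 28 of 50 in wild type and 11 of 50 in the knockout.

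The sense mRNAs themselves had less signal in the knockout. Mean A and C fraction in the heavy-strand data went from 3.58% to 2.41% in ND1 and from 3.69% to 2.43% in ND2, without overlap (exact permutation p = 0.333), a factor of 1.49 and 1.52, against 2.24 and 2.69 for the light-strand G and T. Most light-strand values lay below their sense partner, with the light-strand value higher at 49 of 616 positions opposite ND1 and 29 of 673 opposite ND2 in wild type, and at 21 and 16 in the knockout. In the reverse pairing, light-strand A and C were set against the paired heavy-strand G and T. Their r was 0.54 to 0.57 opposite ND1 and 0.43 to 0.44 opposite ND2 in wild type. In the knockout it was 0.36 to 0.39 and 0.30 to 0.31. By the rule used here, a mismatch at heavy-strand G or T would stand for antisense reads within the heavy-strand data, which was not tested.

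**Figure D2:**
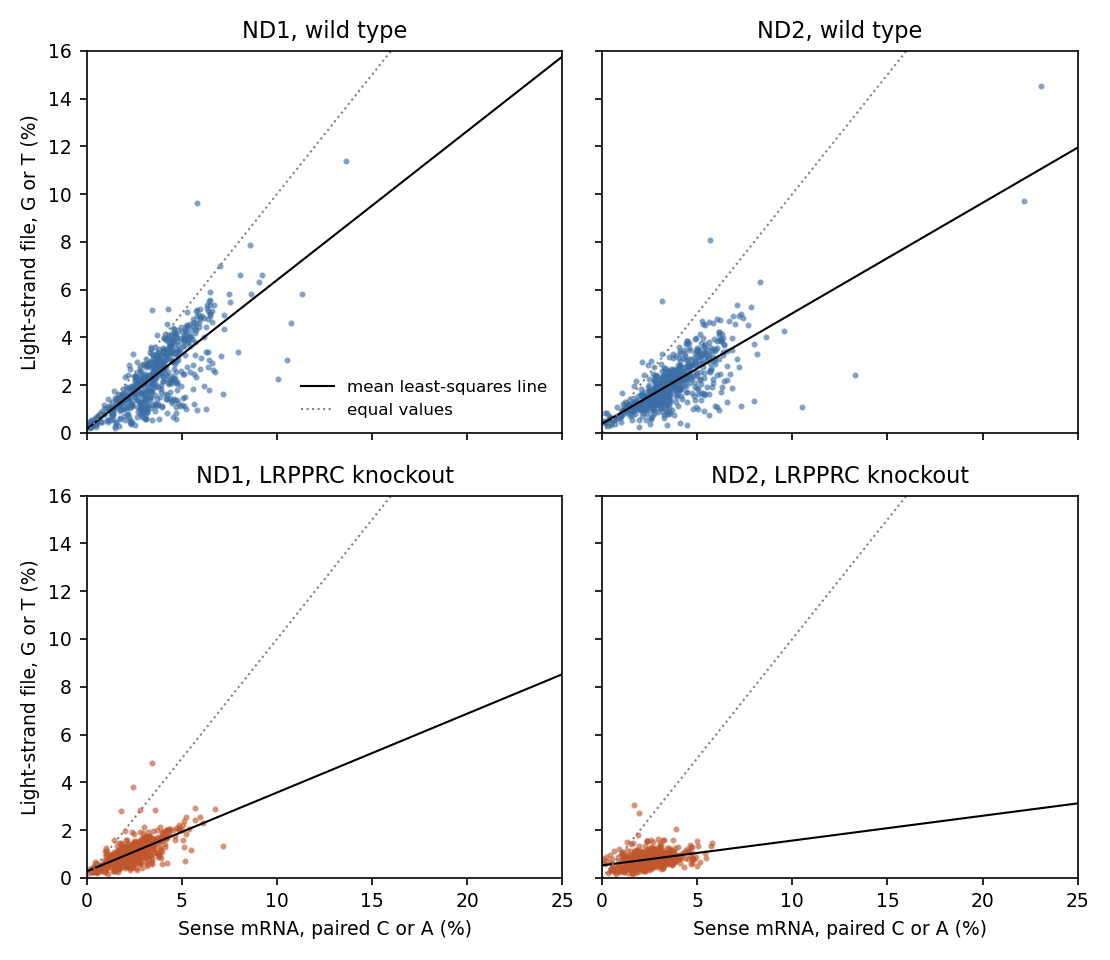
Light-strand G or T fraction (%, y axis) against the paired C or A of the sense mRNA (%, x axis), 1 point per tested position with group means, for wild type (top) and the knockout (bottom). The solid line is the mean least-squares line and the dotted line marks equal values; the line keeps a slope of 33.0% opposite ND1 in the knockout and falls to 10.4% opposite ND2.

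The direction of the A and C change turned when the slope was taken into account. As a value chosen after seeing the data, the A and C mean divided by 1 minus the slope was 4.35% in wild type against 2.95% in the knockout opposite ND1, and 3.45% and 2.48% opposite ND2. On that scale the knockout was lower in both stretches, where the plain means were higher. The division takes the slope as the sense share of the reads, which was not tested.

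The ratio of the A and C mean to the G and T mean needs no scaling between libraries. Opposite ND1 it was 0.692 and 0.683 in wild type against 1.87 and 1.85 in the knockout. Opposite ND2 it was 0.900 and 0.883 against 2.86 and 2.89. G and T thus exceeded A and C in wild type, and A and C exceeded G and T in the knockout, in both stretches. In a limma fit over 37 regions of the light-strand data, the log2 ratio rose by 1.44 (SE 0.047, adjusted p = 2.5e-06) opposite ND1 and by 1.69 (SE 0.047, adjusted p = 1.3e-06) opposite ND2. Of all 37 regions, 54.1% were called higher by this fit, so a rise was common, and the stretches stood at ranks 10 and 9 from the largest.

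Compared with the other mRNA regions, the stretch opposite ND1 had the most sense-strand signal in the knockout, though not the smallest change from wild type. Among 13 mRNA regions its knockout ratio of 1.86 was the lowest, while in wild type it ranked 6 from the lowest. The stretch opposite ND2, at 2.88, ranked 4 from the lowest in the knockout and 9 in wild type. By the slope on the sense strand, ND1 at 33.0% ranked 3 of 15 mRNA and rRNA regions in the knockout, after RNR1 at 53.0% and RNR2 at 48.5%, and ND2 ranked 6. COX1, whose wild-type ratio was 0.280, reached 2.55 in the knockout, a larger change than in either stretch. By log2 ratio, ND1 ranked 4 from the smallest change of the 13, at 1.44, after ND6 at 0.15, ND3 at 0.50 and ND5 at 0.96. The plain ratio of the rest of the light-strand data went from 0.845 to 2.84.

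Within each library, the log2 ratio opposite ND1 lay 0.320 and 0.276 below the rest of the data in wild type and 0.619 and 0.603 below it in the knockout. For ND2 the distance from the rest was 0.060 and 0.095 in wild type against -0.010 and 0.042 in the knockout, where the libraries fell on both sides of 0. The gap between the stretches, ND2 minus ND1, was 0.375 ± 0.0064 in wild type against 0.627 ± 0.026 in the knockout (SD, n = 2 each), without overlap (exact permutation p = 0.333). TRNQ, the tRNA encoded on the light strand between them, had a ratio of 1.99 in wild type against 2.25 in the knockout, and its change was not called (adjusted p = 0.172, limma).

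**Figure D3:**
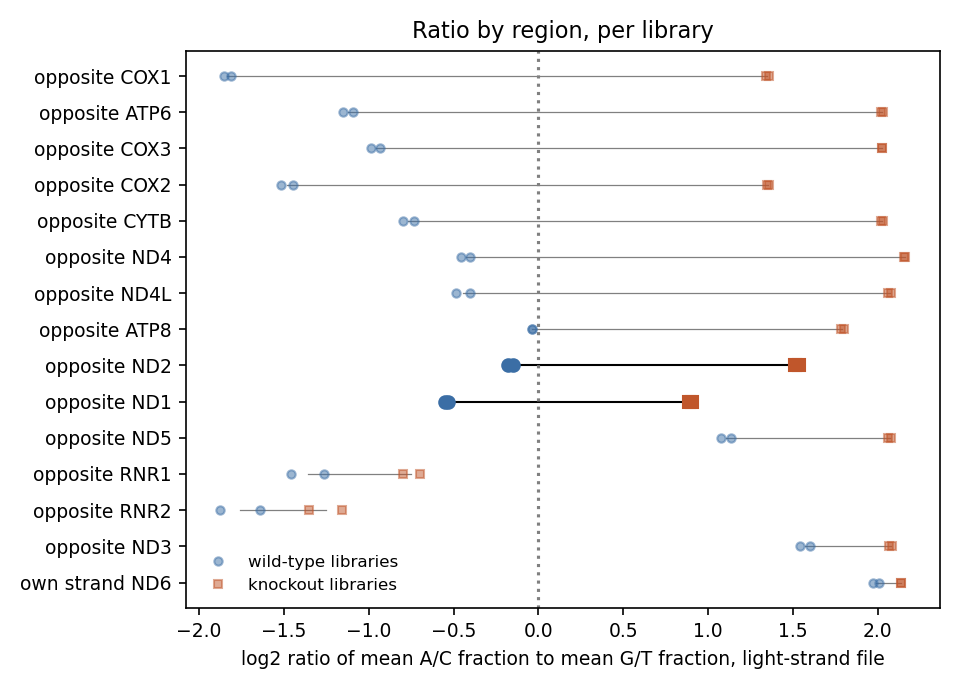
The log2 ratio of mean A/C to mean G/T fraction in the light-strand data (x axis) for regions opposite or, for ND6, on the light strand; circles are the 2 wild-type and squares the 2 knockout libraries, with the stretches opposite ND1 and ND2 drawn larger. Opposite ND1 the log2 ratio crosses 0 and is the lowest of the mRNA regions in the knockout.

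Whether single A and C positions are counted as higher or lower depends on the scale. Fractions were tested as log2(fraction + 0.001), which understates changes at low values. The library median over all 5544 tested A and C positions of the light-strand data rose by 0.54 from wild type to the knockout on this scale, although the median of the changes at single positions was 0.22. After each library was centred on its median, the mean over the stretch changed by -0.23 opposite ND1 (SE 0.014, adjusted p = 7.6e-05, limma) and by -0.29 opposite ND2 (SE 0.015, adjusted p = 4.2e-05), 2 of 29 regions called lower, which is 78.4% of the 37 tested. Without centring the changes were 0.31 (adjusted p = 2.1e-04) and 0.25 (adjusted p = 1.1e-04), and 35.1% of regions were called higher. The uncentred changes lay below the shift of the library median and close to the median change of single positions, and the division by 1 minus the slope turns their direction.

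Opposite ND1, 45 of 326 A and C positions were called higher and 165 lower after centring. Opposite ND2, 32 of 361 were called higher and 196 lower. Over all tested A and C positions 24.6% were called higher and 50.7% lower, against 13.8% and 50.6% opposite ND1 and 8.86% and 54.3% opposite ND2. Without knockout replicate 1 or 2, 30 and 25 positions opposite ND1 were called higher, and 18 and 18 opposite ND2; quantile normalization gave 59 and 66. Without centring, 164 positions opposite ND1 were higher and 34 lower, and 181 opposite ND2 were higher and 29 lower, beside 46.2% and 14.3% over all positions. The median change without centring was 0.27 opposite ND1 and 0.25 opposite ND2, near that of all tested positions.

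At G and T, 539 of 616 positions opposite ND1 and 619 of 673 opposite ND2 were called lower without centring, and 3 and 9 higher, beside 72.4% lower and 2.28% higher over 9757 tested positions. The mean G and T change by region was -0.96 and -1.23 without centring, both called lower, as were 59.5% of the 37 regions. The library median of these positions moved by -1.23. After centring on it, 304 positions opposite ND1 were called higher and 100 lower, and 238 and 262 opposite ND2, beside 44.0% and 33.9% over all. This split moved with the settings. Opposite ND1 it was 241 higher and 205 lower with a pseudocount of 0.01, 330 and 34 with a mean fraction of at least 0.01, and 247 and 64 without wild-type replicate 1. Opposite ND2 it was 236 and 129 with a mean fraction of at least 0.01. Relative to the library median, the G and T mean opposite ND1 rose by 0.27 (adjusted p = 5.0e-05, limma), while opposite ND2 the change was 0.0017 (adjusted p = 0.918).

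The signal was uneven along both stretches. They hold 18 whole 50-nt windows opposite ND1 and 20 opposite ND2. In wild type the ratio of A and C to G and T ran from 0.241 to 2.51 opposite ND1, with a median of 0.497 and 4 of 18 windows above 1. Opposite ND2 it ran from 0.335 to 2.30, with a median of 0.858 and 6 of 20 above 1. In the knockout 17 of 18 and 20 of 20 windows were above 1, and both knockout libraries exceeded both wild-type libraries in 18 of 18 and 20 of 20 windows. The share of such windows over the whole light-strand data is not given here. The ratio of the rest of the data also rose, from 0.845 to 2.84, so these counts do not set the stretches apart.

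The outermost whole windows of each stretch had wild-type ratios above 1. Opposite ND1 the window from 12351 had 2.51 and that from 13201 had 1.65, with the lowest value, 0.241, in the window from 12851. Opposite ND2 the window from 11101 had 2.30 and that from 12051 had 1.91, with the lowest value, 0.335, in the window from 11701. From the 5′ ends the wild-type ratio fell window by window, from 2.51 to 0.290 in the window from 12601 opposite ND1. Opposite ND2 it fell from 2.30 to 0.547 in the window from 11301. Elsewhere the order was not smooth. At the 3′ ends the next window inward had 0.624 from 13151 and 0.681 from 12001, and inner windows from 11401 and 11851 had 1.23 and 1.08. The antisense signal in the end windows was 2.65% in wild type against 2.34% in the knockout from 12351, 2.11% and 2.24% from 13201, 3.20% and 2.92% from 11101, and 2.36% and 2.36% from 12051. Without centring it fell in the windows from 12351 and 11101, rose in that from 13201 and was not called in that from 12051. In the windows with the lowest ratios it rose without centring, from 0.688% to 1.28% at 12851 and from 1.03% to 1.75% at 11701. G and T in these windows went from 2.86% to 1.44% and from 3.07% to 0.946%.

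By limma on centred window means, 2 of 18 windows opposite ND1 were called higher and 12 lower, and 1 of 20 opposite ND2 was called higher and 17 lower, beside 28.3% higher and 62.2% lower of 307 windows. Without centring 15 windows opposite ND1 were higher and 1 lower, and 17 and 1 opposite ND2, beside 56.4% and 24.1%. The windows from 12651 (0.692% to 1.42%, centred change 0.34, adjusted p = 0.0023) and 12851 (centred change 0.22, adjusted p = 0.0041) were the 2 called higher opposite ND1, and the window from 11701 (centred change 0.15, adjusted p = 0.0011) was the 1 opposite ND2. Without knockout replicate 2 the centred changes from 12651 and 12851 were 0.30 and 0.18 and were no longer called, and with a pseudocount of 0.01 that from 12851 was 0.052 and not called (adjusted p = 0.062). The number called higher opposite ND1 ran from 0 without knockout replicate 2 to 4 without wild-type replicate 1 or with a pseudocount of 0.0001, and 5 with quantile normalization. Opposite ND2 it was 2 without wild-type replicate 1 and 4 with quantile normalization. The window from 12401 had a near-equal antisense level in both groups, at 2.63% in wild type against 2.62% in the knockout, while its G and T went from 1.82% to 0.794%.

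**Figure D4:**
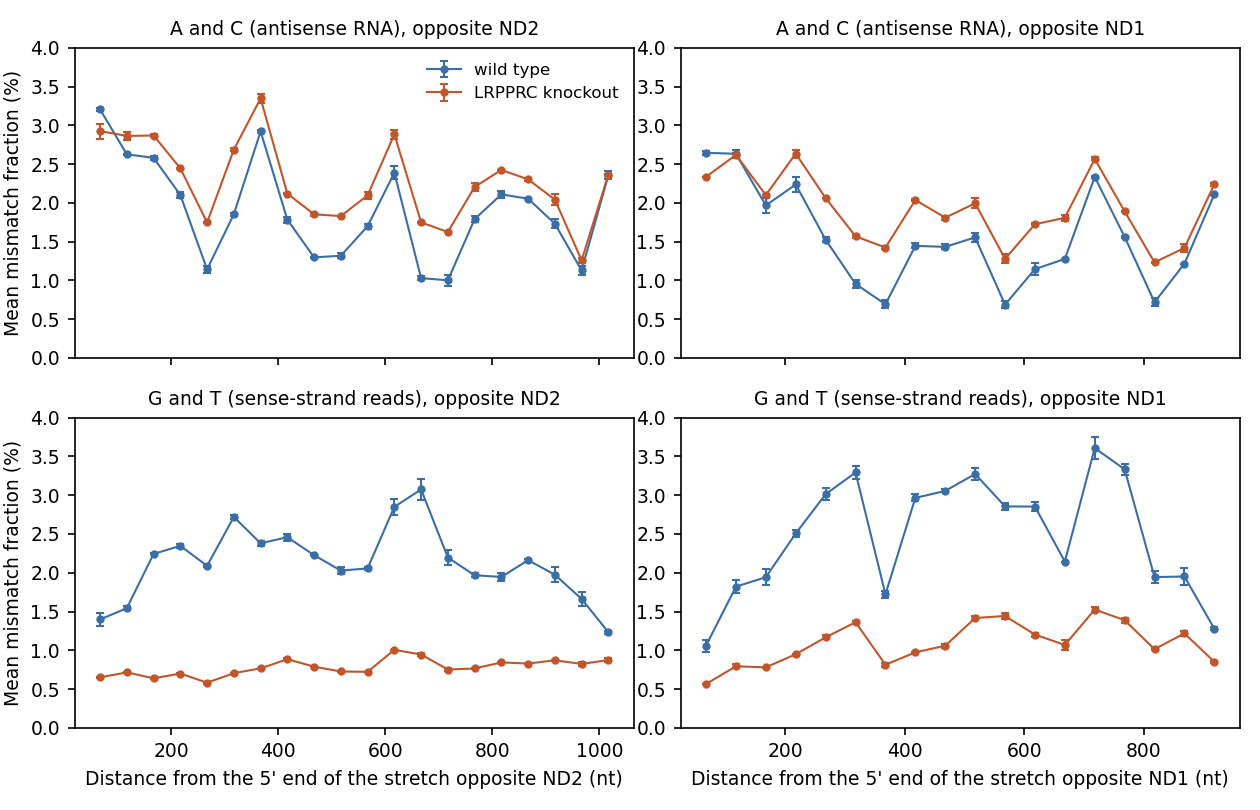
Mean mismatch fraction (%) in 50-nt windows against the distance (nt) from the 5′ end of each antisense stretch, for A and C (top) and G and T (bottom), with points at group means and error bars of 1 SD (n = 2). The knockout line for G and T lies below the wild-type line in all 38 windows, and opposite ND2 it stays between 0.582% and 1.01%. Mean G and T of the rest of the light-strand data was also lower in the knockout, at 0.708% against 1.85%.

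Single bases moved within this pattern. Opposite ND1 the largest centred rise was at A 12671 (ggtcgAagggg), with 0.301% and 0.190% in wild type against 0.875% and 0.919% in the knockout. Its centred change was 1.00 (SE 0.18, adjusted p = 0.0060, limma). The neighbours C 12877 (ccgatCagggc) and A 12878 (cgatcAgggcg), both in the window from 12851 printed above, followed. C 12877 went from 0.609% and 0.608% to 1.92% and 1.91%, and A 12878 from 0.695% and 0.580% to 1.76% and 2.15%. All 3 were also higher without centring, by 1.48 to 1.55. Their order depended on the pseudocount: with 0.01 the centred change was 0.25 at A 12671, below the 0.50 at both C 12877 and A 12878.

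The largest centred falls opposite ND1 were at 3 A. A 12998 (tggggAggggg) went from 2.65% and 2.74% to 1.37% and 1.51%, with a centred change of -1.40 (SE 0.067, adjusted p = 2.9e-04, limma). A 13049 (cggtgAtgtag) went from 3.25% and 3.27% to 1.88% and 1.66%, and A 12833 (gggtgActtca) from 2.73% and 2.81% to 1.68% and 1.88%. They fell without centring as well, with changes of -0.86, -0.85 and -0.62, against a median over the stretch that rose.

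The highest knockout antisense position opposite ND1 was A 12723 (ggccaAgggtc), at 3.27% and 3.37% in wild type against 6.89% and 6.94% in the knockout. C 13039 (aaggtCggggc) was the highest in wild type and next in the knockout, at 7.09% and 7.31% against 5.93% and 6.49%. C 12615 (gcctgCggcgt) rose from 2.29% and 2.12% to 5.00% and 4.91%. None of these groups overlapped.

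Opposite ND2 the largest centred rise was at A 11718 (gaagcAggccg), in the window from 11701 printed above, from 1.09% and 0.971% to 2.76% and 3.08%, a centred change of 0.87 (SE 0.074, adjusted p = 6.0e-04, limma). C 11318 (ttgggCaaaaa) rose from 0.636% and 0.576% to 1.65% and 1.84%. A 11770 (gtgaaAggggg) rose from 1.86% and 1.40% to 4.09% and 3.83%.

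The largest centred fall opposite ND2 and the next largest lay in a run of A. A 12017 (caggtAaaaaa) went from 0.836% and 0.855% to 0.271% and 0.239%, a centred change of -1.96 (SE 0.12, adjusted p = 3.3e-04, limma), and its neighbour A 12018 (aggtaAaaaat) from 0.839% and 0.942% to 0.333% and 0.342%. The third was C 11423 (agggtCgtggt), in the window from 11401 printed above. It was the highest wild-type antisense position of both stretches, at 9.93% and 10.07%, and had 4.45% and 4.63% in the knockout. All 3 also fell without centring. With a pseudocount of 0.01 the centred fall was the largest of the 3 at C 11423, at -1.34, against -0.91 at A 12017 and -0.85 at A 12018.

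C 11458 (gaatgCggtag) was the highest knockout position opposite ND2, at 2.93% and 2.64% in wild type against 4.95% and 5.09% in the knockout. A 11891 (attagAaggat) went from 3.72% and 3.76% to 4.78% and 5.21%. C 11949 (tggaaCgaggg) went from 3.33% and 3.11% to 4.53% and 5.22%. After centring the changes at 11891 (-0.14, adjusted p = 0.075) and 11949 (0.040, adjusted p = 0.64) were not called, and without centring both were, at 0.41 and 0.58. Over the whole stretches, knockout means were above wild-type means at 243 of 326 positions opposite ND1 and 284 of 361 opposite ND2. The share over all tested A and C positions is not given here. Their median change without centring was also a rise, 0.22, against 0.27 opposite ND1 and 0.25 opposite ND2.

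**Figure D5:**
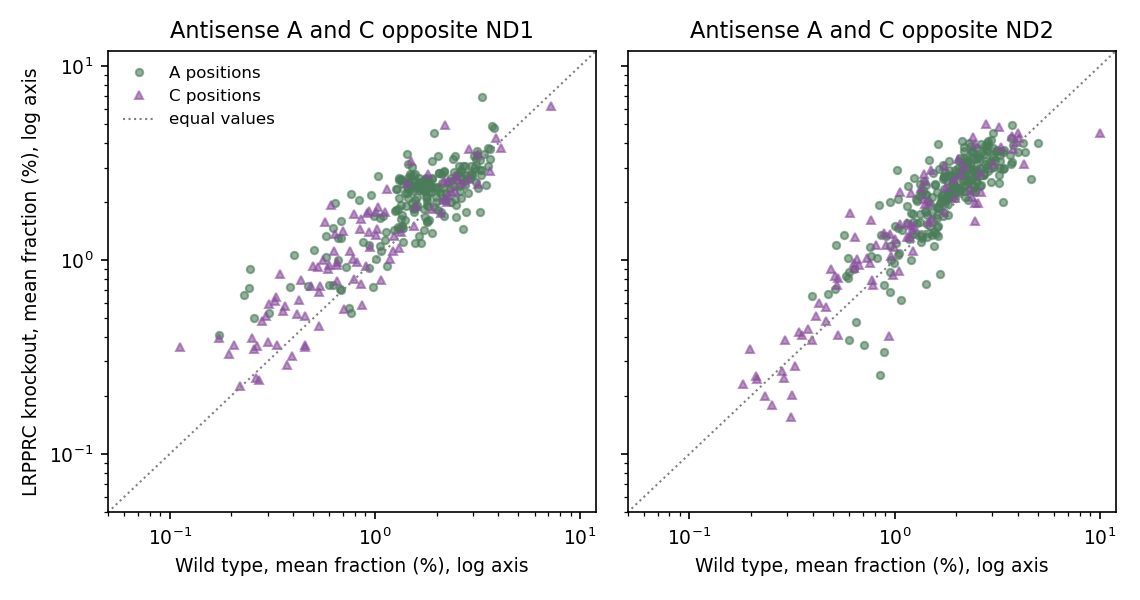
Knockout against wild-type mean fraction (%, both log axes) at each tested A (circles) and C (triangles) of the antisense stretches; the dotted line marks equal values. Of the points, 243 of 326 opposite ND1 and 284 of 361 opposite ND2 lie above the line, and C 11423, at 10.0% in wild type, lies far below it. The median log2 change over all tested A and C positions of the light-strand data was also a rise, 0.22 without centring.

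The highest G and T positions had strong partners in the mRNA. Opposite ND1, G 12781 (gagagGttaaa) had 11.19% and 11.57% in wild type against 2.00% and 1.93% in the knockout, and its sense C had 13.5% and 13.7% against 4.09% and 4.01%. G 12944 (aggtgGctaga) fell from 7.66% and 8.11% to 1.81% and 1.91%. G 13046 (gggcgGtgatg) was unlike them: it fell from 9.55% and 9.72% to 4.67% and 4.91%, and in all 4 libraries it lay above its sense partner, which had 5.84% and 5.72% against 3.45% and 3.42%. Its change relative to the library median of G and T was 0.23 and was not called (adjusted p = 0.068, limma).

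Opposite ND2, G 11354 (agggaGaggag) fell from 14.4% and 14.7% to 0.871% and 0.811%, and its sense C from 23.2% and 22.9% to 4.06% and 4.01%. G 11234 (tagagGttaag) fell from 9.38% and 10.0% to 0.779% and 0.778%, and its sense C from 21.8% and 22.5% to 4.67% and 4.86%. Both light-strand values came near the knockout mean of all G and T opposite ND2, 0.773%, while their sense partners stayed well above it. T 11693 (ggggcTagttt) fell from 7.65% and 8.48% to 2.00% and 2.09%, and like G 13046 it exceeded its sense A in wild type, which had 5.53% and 5.86% against 3.80% and 3.98%.

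Profiles were more alike within a group than between groups. Across the A and C positions, r between the 2 libraries of a group was 0.98 to 0.99 in both stretches, and between a wild-type and a knockout library it was 0.87 to 0.89. Across G and T the r between groups was 0.82 to 0.85 opposite ND1 but 0.44 to 0.49 opposite ND2. These are descriptions over positions that share depth and base composition.

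The antisense signal varied with the neighbouring bases. Over both stretches, A followed by G had the highest knockout mean of the A contexts, 2.60% over 205 positions, against 1.89% over 28 positions for A followed by C. C followed by G had 2.18% over 50 positions, and C followed by C had 0.80% over 28. Wild type had the same order at the extremes, with 2.06% and 1.53% for these A contexts and 1.88% and 0.689% for these C contexts. By the codon position of the sense base they pair with, A fractions lay between 2.28% and 2.40% in the knockout. C fractions were 1.44%, 1.53% and 1.96% at positions 1, 2 and 3 in the knockout, with 1.17%, 1.26% and 1.80% in wild type. By the preceding base, C after A had 1.97% and C after C had 0.76% in the knockout. In wild type these had 1.52% and 0.69%. Knockout A fractions varied less by the preceding base, from 2.15% after T to 2.45% after G.

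Predicted folding of the antisense RNA was set beside the signal. RNAplfold computed from sequence alone the probability that each base is unpaired, within windows of 240 nt and spans of 160 nt. Spearman's rho between this probability and the A and C fraction, averaged over the libraries of a group, was 0.31 in wild type against 0.43 in the knockout opposite ND1 (326 positions), and 0.32 and 0.36 opposite ND2 (361 positions). The rest of the light-strand data gave 0.30 and 0.41. With A alone, rho opposite ND1 was 0.051 in wild type against 0.23 in the knockout, and opposite ND2 it was 0.15 and 0.22. With a folding window of 150 nt and spans of 100 nt these became 0.12 and 0.30 opposite ND1, and 0.18 and 0.25 opposite ND2.

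The difference between the groups was larger at A predicted to be unpaired than at A predicted to be paired. Opposite ND1, 40 A with an unpaired probability over 0.8 went from 1.90% ± 0.018 to 2.50% ± 0.029 (SD, n = 2 libraries), while 39 A under 0.2 went from 1.79% ± 0.012 to 1.92% ± 0.0095. Opposite ND2, 46 A over 0.8 went from 1.98% ± 0.038 to 2.51% ± 0.046, and 38 A under 0.2 from 1.51% ± 0.042 to 1.70% ± 0.016. The groups did not overlap in any of these classes, with the exact permutation p at its smallest of 0.333.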

How the data were processed

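The authors deposited fractions; each library has, per the file headers, a file for each strand with the position, the base, the mismatches, and the mismatches with deletions. Reads were trimmed with cutadapt and aligned with Bowtie2, per the submitters' processing notes, whose versions, like the genome build and any coverage minimum, are not given in the sources used here. No read counts are given, so the depth is unknown and no interval was computed. Mismatch fractions from 2 wild-type and 2 knockout libraries were used as deposited. The gene table of GRCh38.p14 gave gene names and region boundaries. Its coordinates were lowered by 1 beyond position 3106 to match the numbering of the data. The members and lists were chosen with earlier results of these data known.

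Positions with a mean fraction of 0.002 to 0.3 were tested over the whole light-strand file as log2(fraction + 0.001), centred on the library median, with limma 3.58.1 in R 4.3.3 (lmFit, eBayes with trend except for the ratio, two-sided, Benjamini-Hochberg, threshold 0.05). Windows of 50 nt needed 8 and regions 10 tested positions. For single values the test was an exact permutation over libraries, two-sided. Positions named for each stretch were the 3 largest called rises and falls without overlap, the 3 highest knockout A or C and the 3 highest wild-type G or T; windows were the 2 highest, 2 largest rises and 2 largest falls. On simulated data, 82% of 100 positions moved by 1 and 94% of 100 moved by 2 on the log2 scale were recovered among 5544, with 8 unmoved positions called. The simulation held no shift between library medians, so it did not test the centring. Folding used RNAplfold 2.7.2; other steps used Python 3.11.15 with pandas 2.3.3, numpy 2.4.6, matplotlib 3.10.9 and scipy 1.17.1. Alternatives covered centring, the pseudocount, both limits, deletions, bases, window length, the replicate block and each library left out.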

Additional observations from a re-analysis of the deposited data

How the results depend on the processing

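Without centring, the A and C change by region turned from a fall to a rise, 0.31 opposite ND1 and 0.25 opposite ND2, while all other alternatives tried for it kept the fall. Dividing by 1 minus the slope, an alternative chosen after seeing the data, turned the higher A and C mean of the knockout into -1.40 and -0.97 percentage points. With no limit on the mean fraction, the slope opposite ND2 changed by 8.08 points in place of -35.9, because 2 positions above 0.3 entered. Windows of 100 nt left 6 and 10 called in place of 14 and 18, with fewer windows to call. The split of A and C calls under quantile normalization was 59 higher and 142 lower opposite ND1, and 66 and 153 opposite ND2.

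Among named items, the change was 0.41 without centring and 0.33 with quantile normalization at 11891, -0.99 without centring and -0.23 with a pseudocount of 0.01 at 13046, and at 11949 from -0.055 to 0.13 with 1 library left out, negative without knockout replicate 2. In the window from 11401 it was 0.33 without centring and 0.043 with quantile normalization, and in that from 12501 it was 0.19 without centring. In the window from 11751 it was -0.0035 with a pseudocount of 0.01 and from -0.0030 to 0.085 with 1 library left out, negative without wild-type replicate 2. The other values kept their direction, with 9 newly called and 5 no longer called.

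The same replicate numbers in both groups were not shown to pair libraries: deviations of same-numbered libraries correlated at r = 0.0449 over 5544 positions in 2 pairs. With the replicate block the ratio changes stayed at 1.44 and 1.69, and the block called 210 and 226 A and C positions, 377 and 468 G and T positions and 14 and 18 windows.

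Leaving out 1 library at a time gave 157 to 222 and 169 to 240 called A and C positions, 311 to 385 and 429 to 469 G and T positions, and 11 to 16 and 17 to 20 windows, opposite ND1 and ND2. The A and C difference then ranged from 0.329 to 0.349 and 0.354 to 0.383 points, the G and T change from -1.33 to -1.30 and -1.32 to -1.29, the slope change from -29.4 to -29.4 and -36.1 to -35.6, the ratio change from 1.43 to 1.45 and 1.68 to 1.70, and the A and C change by region from -0.23 to -0.22 and -0.31 to -0.28. Where this left 1 library in a group, it was assumed to vary like the other group. Depth limits all of these values by an unknown amount.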
